A study of Mus musculus with 6 samples.

Results

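The 10 genes described here make and control the step that carries pyruvate from glycolysis into the mitochondrion: the pyruvate carriers Mpc1 and Mpc2, the pyruvate dehydrogenase subunits Pdha1, Pdhb and Dlat, the kinases Pdk1, Pdk2, Pdk3 and Pdk4, and the phosphatase Pdp1. They were taken by symbol from the 53110 genes of the deposited table, and all 10 were found, each as 1 entry. The samples were primary neural stem cells (NSCs) from the cortex of mouse embryos at mid-gestation, grown attached to Matrigel in medium with bFGF and EGF in an incubator at 21% oxygen. The groups were wild type (WT, 3 samples) and Setd5+/- (3 samples), in which 1 allele of the chromatin regulator gene Setd5 was lost by CRISPR-Cas9 editing. The sex of the embryos is not given in the sources used here. The column headings name a single clone for the Setd5+/- samples, which is not among the clones that the study's text names, and these columns were taken as Setd5+/- because they are the only ones not headed as wild type.

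Pyruvate enters the mitochondrial matrix through a carrier built from the MPC1 and MPC2 proteins. In the matrix the pyruvate dehydrogenase complex turns it into acetyl-CoA, with E1 (alpha subunit Pdha1, beta subunit Pdhb) removing carbon dioxide and E2 (Dlat) passing the acetyl group to coenzyme A. The PDK kinases phosphorylate E1 alpha and switch the complex off, and the PDP phosphatases remove the phosphate and switch it on again, so the balance between them sets how much pyruvate is oxidised. Neural stem cells are known for a strong reliance on glycolysis, and this step is where glycolysis and mitochondrial oxidation meet.

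The deposited values are read counts divided by a size factor for the sample, called normalized counts below. The reads assigned to genes numbered 9995980 to 10004948 per WT sample and 7143309 to 7146147 per Setd5+/- sample. The 3 samples of a genotype carried the same index and lane in their headings. The chi-square of their reads per degree of freedom was 1.92 to 1.96 within a genotype and 63.4 to 63.9 between genotypes. A value near 2 is what sampling gives when both ends of a read pair are counted, and 75.1% of the values of 1 to 10 reads were even numbers. Inside a genotype, the variance divided by the mean was 1.88 for genes of 10 to 100 reads and 1.98 in WT and 1.93 in Setd5+/- for genes of 1000 reads or more, so it hardly grew with the level, as it would between cultures that differ. The samples were counted as parts of 1 library, so n = 1 per genotype, no SD is given, and a difference has no replicate check. The intervals given are 95% counting intervals of the log2 fold change, Setd5+/- over WT, and cover counting error only. The adjusted p-values of limma compare the reads of these 2 libraries, and an effect of the genotype cannot be told apart from one of the clone, the library, the index or the lane. Setd5 itself ranged from 2498 to 2780 normalized counts in WT and from 1990 to 2151 in Setd5+/-, a log2 fold change of -0.37 (-0.44 to -0.30, adjusted p = 3.13e-09). The neural stem cell markers fit the labelled cell type in both libraries, with Sox2 at 3119 and 2732 normalized counts and Nes at 2378 and 1951. Of the 8, 6 were lower and 2 higher in Setd5+/-. The largest fall was that of Fabp7 (36015 and 11490) and the largest rise that of Vim (9095 and 13822). Other lineages also moved: the summed level of the 7 oligodendrocyte markers was 40200 to 41070 normalized counts in WT and 22250 to 23070 in Setd5+/-, with Sox10 at 298 and 1.59. The 5 astrocyte markers split: Gfap (17.1 and 263 normalized counts), Aqp4 (57.7 and 187) and S100b (339 and 737) were higher in Setd5+/-, and Slc1a2 (4678 and 1225) and Aldh1l1 (380 and 147) were lower. Their median log2 fold change was 1.12, while their sum, most of it Slc1a2, was 5410 to 5540 in WT and 2419 to 2659 in Setd5+/-. By contrast, the sum of the 5 mesenchymal markers stayed between 2.38 and 14.3 in every sample and Lum, Cx3cr1 and Ptprc were at 0 in all 6. Of the 5 neuron markers tested, 3 were lower and 1 higher, with Dcx at 248 and 26.2 and Map2, which rose, at 9983 and 12445. The sum of the 6 neuron markers, most of it Map2, was 10240 to 10610 in WT and 12480 to 12590 in Setd5+/-. The microglia markers summed to 48.9 to 119 and the endothelial markers to 6.63 to 26.2 over the 6 samples. The part of these shifts in the results below was not tested. In whole cultures, fewer cells of a type and less RNA per cell cannot be told apart.

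Of the 10 genes, 5 were lower in Setd5+/-, 3 were higher and 2 did not pass the test, at an adjusted p under 0.05. Over all 16266 genes tested, 61.3% passed it, 30.9% as lower and 30.3% as higher, so 8 of 10 is not far from the background of these 2 libraries. Values of the genotypes did not overlap in 9 of the 10 genes, against 65.3% of all genes. A change of at least 2-fold was seen in 1 of the 10, Pdk1, against 16.7% of all genes. The median log2 fold change was -0.24 over the 10 genes and -0.02 over all genes tested. Listed by role, the 3 subunit genes fell, the 4 kinases split, the only phosphatase of the 10, Pdp1, rose, and neither carrier passed the test. Whether the change goes with the role was not tested.

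**Figure D1:**
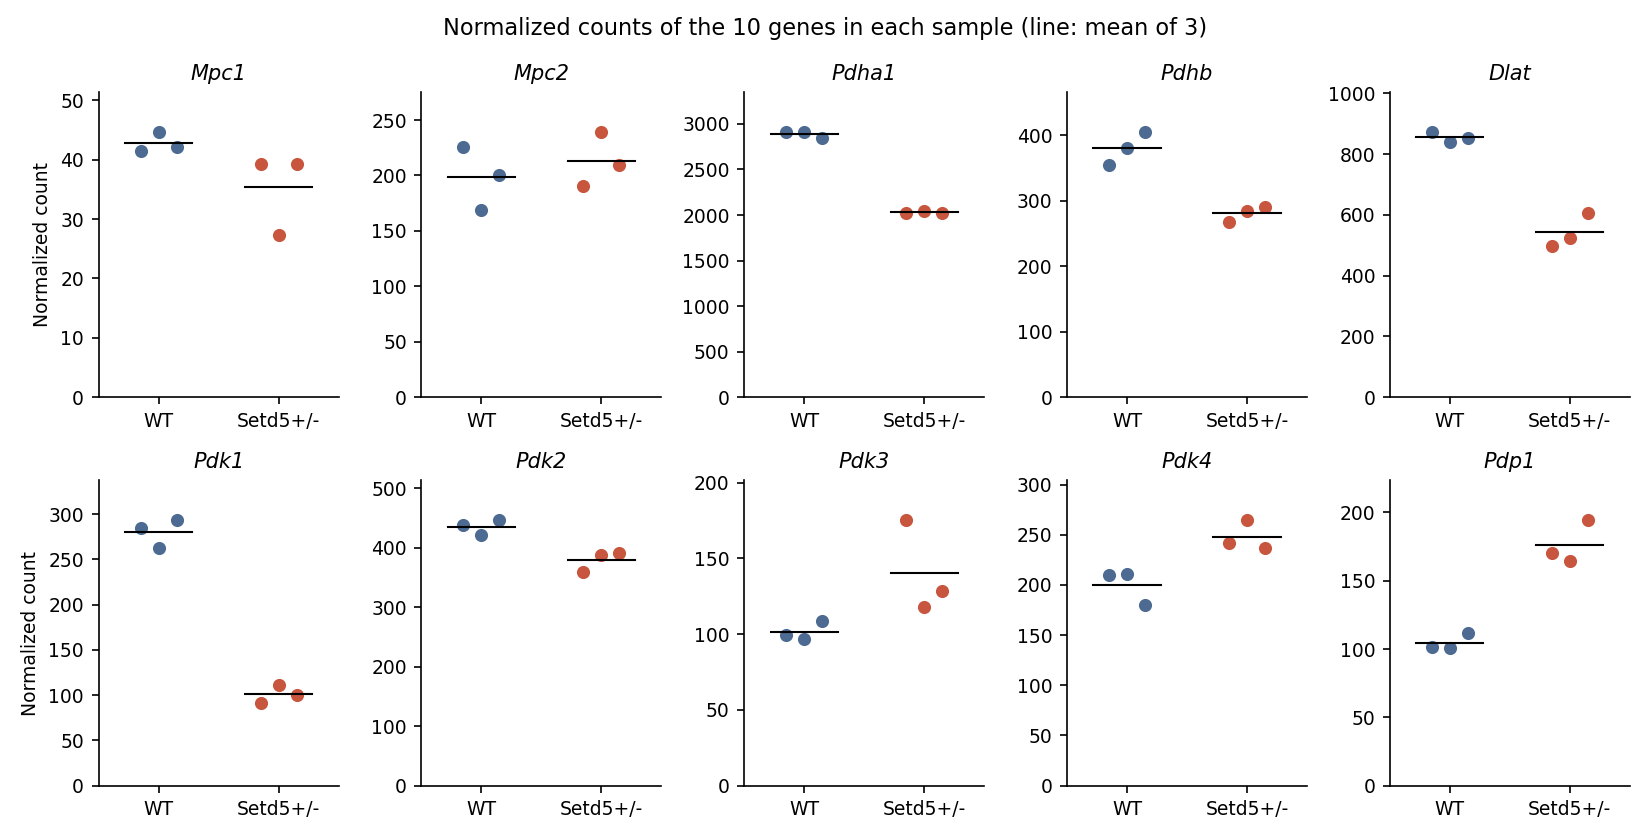
Normalized count (vertical axis, from 0, with its own scale in each panel) of each of the 10 genes in the 3 WT samples (blue) and the 3 Setd5+/- samples (red), where the line is the mean of the 3. The samples of the genotypes are apart in every panel but that of Mpc2. The fold difference is largest for Pdk1, at 280 against 101 normalized counts on average.

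Mpc1, which encodes one subunit of the carrier, lies on the plus strand at chr17:8282904-8297661 (GRCm38, ENSMUSG00000023861). Its normalized counts were 41.5, 44.7 and 42.2 in WT, against 39.3, 27.4 and 39.3 in Setd5+/-. The Setd5+/- values were all below the WT values, but with 155 and 89 reads behind them the interval of the log2 fold change of -0.29 was wide (-0.81 to 0.24) and the test was not passed (adjusted p = 0.318). Without Setd5+/- sample 2, the lowest, it was -0.12. The low count of Mpc1 has to be read beside a processed copy of it, Mpc1-ps at chr12:110858565-110858894, which matched an Mpc1 transcript at 99.7% of 330 aligned bases, a stretch that holds the coding region of 327 bases. The authors aligned reads to the genome with Bowtie2, an aligner that does not split a read across an intron. A read across an exon junction of Mpc1 is broken by an intron on chromosome 17 but lies unbroken in the copy. The junction of exons 3 and 4 of the Mpc1 transcript that is closest to the copy is shown with the same 60 letters of Mpc1-ps, read from its minus strand, and the capitals mark the bases on each side of the junction.
Mpc1, chr17:8296602-8296631 joined to chr17:8296824-8296853: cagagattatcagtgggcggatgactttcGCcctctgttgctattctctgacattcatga
Mpc1-ps, chr12:110858693-110858752: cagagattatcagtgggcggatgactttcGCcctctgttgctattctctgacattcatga
The sequences have 0 mismatches over this window. Mpc1-ps was listed at 489, 496 and 549 normalized counts in WT and at 346, 360 and 316 in Setd5+/-, far above Mpc1 in every sample, and its log2 fold change was -0.59 (adjusted p = 3.14e-07).

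With Mpc1 and its 3 copies added up, an alternative added after seeing the data, the level was 554 normalized counts in WT and 377 in Setd5+/-. The copies held 92.3% of this sum in WT and 90.6% in Setd5+/-. The log2 fold change of the sum was -0.55 (-0.71 to -0.40, adjusted p = 2.49e-07), so whether Mpc1 passes the test turns on which reads are taken as its own. Which of the loci the reads came from was not tested. Mpc1 also shares 480 exon bases with 4930506C21Rik on the opposite strand, which had 22.9 and 19.1 normalized counts, and strand use in the counting is not given in the sources used here.

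Mpc2, the partner of Mpc1 in the carrier, lies on the plus strand at chr1:165460637-165481214 (ENSMUSG00000026568). It had 226, 169 and 200 normalized counts in WT and 191, 239 and 210 in Setd5+/-. The groups overlapped, with 2 of the 3 Setd5+/- values inside the WT range. Its log2 fold change was 0.11 (-0.12 to 0.33, adjusted p = 0.452), and without WT sample 2 the value was at 0.00 with the sign turned. The genes of chromosome 1 as a whole were higher in Setd5+/-, with a median log2 fold change of 0.53 over 1044 genes tested, against -0.04 on chromosomes 2 to 19 and X. The whole interval of Mpc2 lay below that median of its chromosome.

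The catalytic subunits fell together. Pdha1, the E1 alpha subunit that carries the sites the kinases phosphorylate, lies on the minus strand at chrX:160122209-160138413 (ENSMUSG00000031299) and was the most abundant of the 10. It had 2914, 2907 and 2843 normalized counts in WT and 2025, 2045 and 2018 in Setd5+/-. The groups were far apart, with little spread inside each. The log2 fold change was -0.51 (-0.58 to -0.44, adjusted p = 4.93e-14), which leaves 70.3% of the WT level. Exons of Pdha1 share 603 bases with Map3k15 on the opposite strand, listed at 1149 and 793 normalized counts, and reads of these genes cannot be told apart without strand. A transcribed copy, 4930519F09Rik on chromosome 10, is 90.1% identical over 1118 bases and had 403 and 292 normalized counts, and with it added the log2 fold change of Pdha1 was -0.50.

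Pdhb, the E1 beta subunit, lies on the minus strand at chr14:8165996-8173025 (ENSMUSG00000021748). It had 355, 381 and 405 normalized counts in WT and 267, 285 and 290 in Setd5+/-, again with no overlap. The log2 fold change was -0.44 (-0.62 to -0.25, adjusted p = 8.55e-05), close to that of Pdha1. As for Mpc1, much of the signal stood on a processed copy: Gm6123 at chr1:4771131-4772199 is 97.0% identical over 1079 bases and was listed at 546 normalized counts in WT, against 462 in Setd5+/-. With Gm6123 added, Pdhb fell by 0.32 on the log2 scale (adjusted p = 1.27e-05). Gm6123 lies on chromosome 1, where genes were higher as a whole, yet its own log2 fold change was -0.24 (adjusted p = 0.00681).

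Dlat, the E2 subunit that forms the core of the complex, lies on the minus strand at chr9:50634633-50659780 (ENSMUSG00000000168). It had 873, 838 and 853 normalized counts in WT and 497, 524 and 608 in Setd5+/-. No Setd5+/- value came near the WT values, and the log2 fold change of -0.66 (-0.79 to -0.53, adjusted p = 1.95e-09) was the largest of the 3 subunits. Of the 10 genes, Dlat was the 1 for which the deposited mean had to settle the place of the decimal points. Per kilobase of exon, the ratio of Pdha1 to Pdhb was 7.86 in WT and 7.48 in Setd5+/-, a log2 difference of -0.07 whose interval runs from -0.26 to 0.12. The ratio of Pdha1 to Dlat was 4.42 and 4.89, a log2 difference of 0.15 (0.00 to 0.29). Pdha1 and Pdhb thus fell by similar amounts on the reads listed on the genes themselves. The difference between Pdha1 and Dlat was at the edge of counting error. With Gm6123 added, the fall of Pdhb was smaller, at -0.32 (-0.43 to -0.21), outside the interval of Dlat. How similar the falls were therefore depends on which reads are taken as those of Pdhb.

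**Figure D2:**
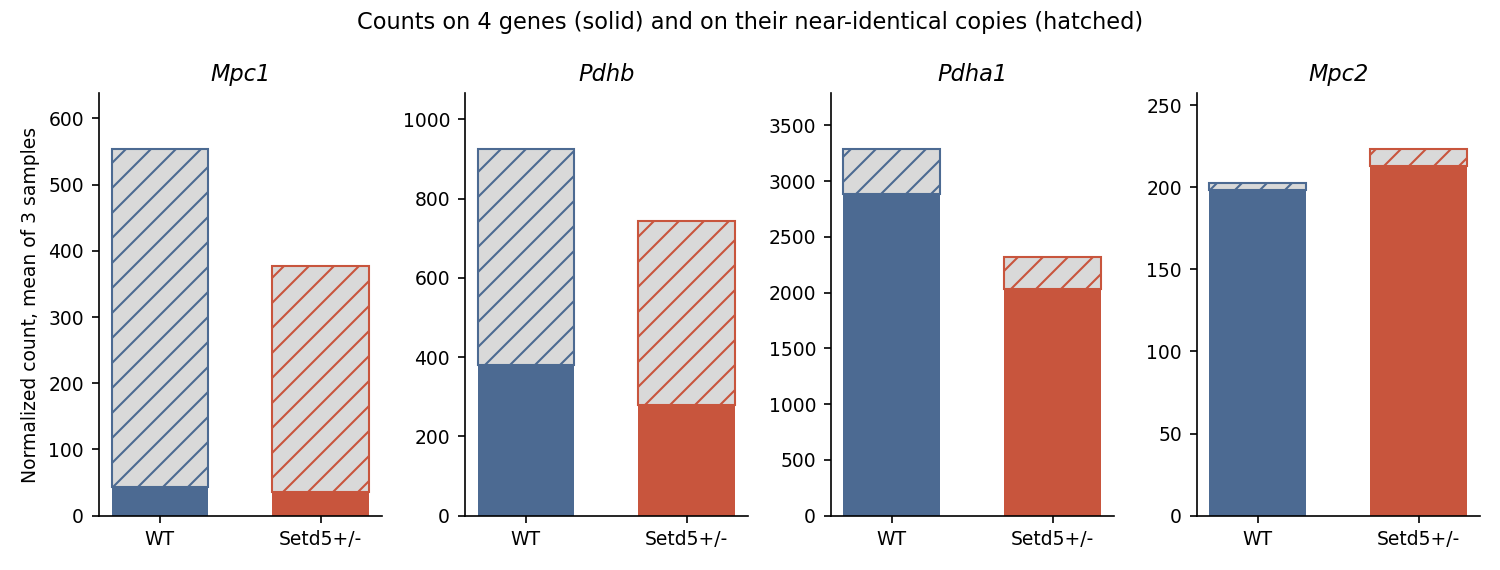
Mean normalized count of 3 samples (vertical axis, from 0) on Mpc1, Pdhb, Pdha1 and Mpc2 (solid bars) and on their near-identical copies elsewhere in the genome (hatched, stacked on top), in WT (blue) and Setd5+/- (red). The copies held 92.3% of the WT sum for Mpc1 and 59.0% for Pdhb, but 12.2% for Pdha1 and 2.05% for Mpc2.

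The 4 kinases did not move as 1 group, as 2 fell and 2 rose. Pdk1, known as a target of the hypoxia-inducible factor HIF-1, lies on the plus strand at chr2:71873224-71903858 (ENSMUSG00000006494). It had 284, 262 and 293 normalized counts in WT and 91.8, 111 and 100 in Setd5+/-. No Setd5+/- value came near the lowest WT value, and the level fell to 36.0% of WT. The log2 fold change was -1.47 (-1.74 to -1.19, adjusted p = 3.12e-11), the largest change of the 10 genes.

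Pdk2, the kinase found in most tissues, lies on the minus strand at chr11:95026258-95041354 (ENSMUSG00000038967). It had 439, 422 and 446 normalized counts in WT and 359, 388 and 392 in Setd5+/-. The groups did not overlap, but the gap was small: the log2 fold change was -0.20 (-0.36 to -0.04, adjusted p = 0.0258). The call was lost without any 1 of WT sample 1, WT sample 3 or Setd5+/- sample 1 (log2 fold changes -0.19, -0.18 and -0.16) and when the libraries were scaled outside chromosome 1 (-0.17, adjusted p = 0.0549).

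Pdk3, the kinase least sensitive to inhibition by pyruvate, lies on the minus strand at chrX:93764607-93832201 (ENSMUSG00000035232). It had 99.5, 96.8 and 109 normalized counts in WT and 175, 118 and 129 in Setd5+/-. All Setd5+/- values were above the WT values, and Setd5+/- sample 1 stood well above the other two. The log2 fold change was 0.45 (0.15 to 0.74, adjusted p = 0.0142). Without Setd5+/- sample 1 it was 0.28 (adjusted p = 0.135), and the call was also lost with no filter on low values (adjusted p = 0.0517).

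Pdk4, a kinase induced by fasting and fatty acids through the PPAR and FOXO factors, lies on the minus strand at chr6:5483351-5496309 (ENSMUSG00000019577). It had 210, 211 and 181 normalized counts in WT and 242, 264 and 237 in Setd5+/-, with no overlap. The log2 fold change was 0.31 (0.09 to 0.52, adjusted p = 0.0139). Without WT sample 3 it was 0.23 (adjusted p = 0.0912), and without Setd5+/- sample 2 it was 0.26 (adjusted p = 0.06).

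The kinases moved in opposite directions, and the makeup of their sum changed. Per kilobase of exon the 4 kinases summed to 270.5 normalized counts in WT and 258.5 in Setd5+/-. Without division by length, which gives the long Pdk1 more weight, they summed to 992 to 1032 in the samples of WT and to 858 to 881 in those of Setd5+/-, a fall with no overlap. Of the sum per kilobase, Pdk1 made up 13.3% in WT (counting interval 12.1 to 14.5) and 5.02% in Setd5+/- (4.15 to 5.89). Pdk2 stayed the largest part, at 50.9% (48.6 to 53.3) and 46.4% (43.5 to 49.4), a difference that turned without division by length (42.8% and 43.7%). Pdk3 went from 14.7% (12.8 to 16.6) to 21.2% (18.6 to 23.9), and Pdk4 from 21.1% (19.2 to 23.0) to 27.3% (24.7 to 29.9). Shares within a library do not depend on the size factor. The ratio of Pdk1 to Pdk2 per kilobase was 0.261 in WT and 0.108 in Setd5+/-, a log2 difference of -1.27 (-1.59 to -0.95). The ratio of Pdk3 and Pdk4 together to Pdk1 was 2.69 and 9.68.

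**Figure D3:**
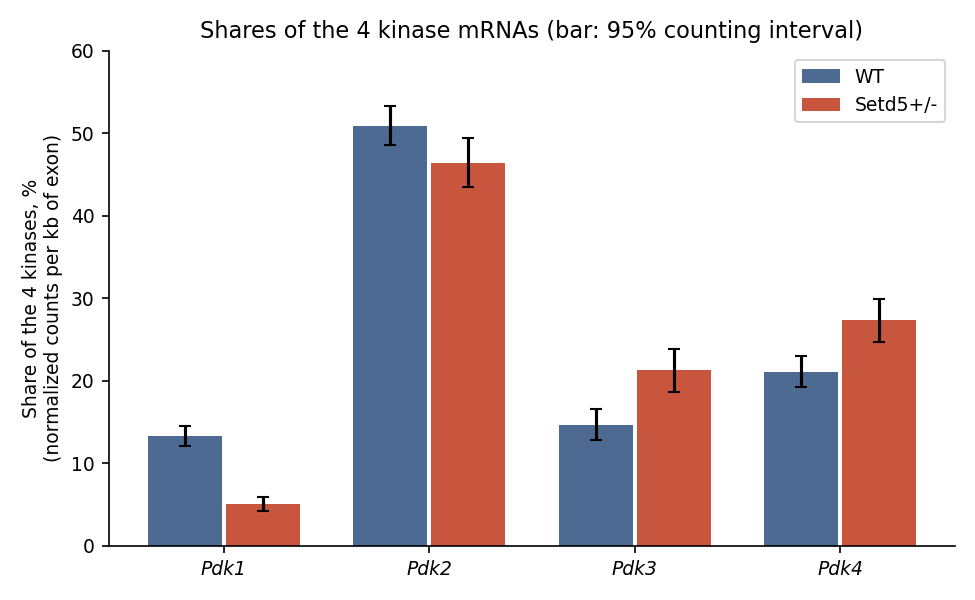
Share of each kinase mRNA in the sum of Pdk1, Pdk2, Pdk3 and Pdk4 (vertical axis, percent of normalized counts per kilobase of exon, from 0), in WT (blue) and Setd5+/- (red), with 95% counting intervals as error bars. Pdk1 has the lowest bar in both genotypes, 13.3% and 5.02%, although in WT it does not differ from Pdk3 beyond counting error, and Pdk2 has the highest, 50.9% and 46.4%.

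The 250 bases before the start site of Pdk4 and before the first of the 2 listed start sites of Pdk1 are shown because these kinases changed in opposite directions (RefSeq windows, GRCm38.p6, each written in the direction of the gene). The capitals mark the letters GCGTG on either strand, which with ACGTG form the core that HIF-1 binds.
Pdk1, chr2:71872974-71873223, plus strand: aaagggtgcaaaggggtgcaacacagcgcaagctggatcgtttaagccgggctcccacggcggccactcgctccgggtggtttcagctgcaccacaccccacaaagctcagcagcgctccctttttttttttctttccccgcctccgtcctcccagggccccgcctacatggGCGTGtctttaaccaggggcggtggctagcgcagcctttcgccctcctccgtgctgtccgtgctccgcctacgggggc
Pdk4, chr6:5496279-5496528, minus strand: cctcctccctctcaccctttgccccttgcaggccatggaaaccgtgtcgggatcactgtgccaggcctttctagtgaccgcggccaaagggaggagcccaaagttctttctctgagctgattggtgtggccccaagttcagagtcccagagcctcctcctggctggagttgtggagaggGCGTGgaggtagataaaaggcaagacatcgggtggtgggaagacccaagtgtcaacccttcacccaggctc
Each window holds GCGTG once, beginning 78 bases before that start of Pdk1 and 71 bases before that of Pdk4, and neither holds ACGTG. A second RefSeq window of Pdk1, at chr2:71874654-71874903, holds neither. The kinase that fell most and a kinase that rose thus each carry these letters in a window, but Pdk1 does so at only 1 of its 2 listed start sites. RefSeq windows were given for 9 of the 10 genes, 12 windows in all, and 8 of the 12 held ACGTG or GCGTG on either strand, against 38.6% of 32851 windows of all genes, with base composition not matched. Pdk3 held 3 GCGTG and 1 ACGTG, and Dlat held neither. The E-box CACGTG, bound by MYC and related factors, contains ACGTG on each strand and was found once, in 1 of the 2 windows of Pdk2, against 6.02% of all windows. These matches describe the letters only.

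Pdp1, the phosphatase that reactivates the complex, lies on the minus strand at chr4:11958184-11966452 (ENSMUSG00000049225). It had 101, 101 and 112 normalized counts in WT and 170, 164 and 194 in Setd5+/-. All Setd5+/- values stood well above the WT values, and the log2 fold change of 0.75 (0.47 to 1.02, adjusted p = 2.17e-05) was the largest rise of the 10. Per kilobase of exon, the ratio of Pdk1 to Pdp1 was 1.55 in WT and 0.331 in Setd5+/-, and that of the 4 kinases together to Pdp1 was 11.7 and 6.61, a log2 difference of -0.82 (-1.11 to -0.52). The ratio of the 4 kinases to their substrate Pdha1 went the other way, from 0.350 to 0.476 (log2 difference 0.44, interval 0.31 to 0.57). These are ratios of mRNA, and neither phosphorylation nor enzyme activity was measured.

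Ordered by normalized counts per kilobase of exon in WT, Pdha1 stood first at 773, followed by Dlat (175), Pdk2 (138), Pdhb (98.5), Pdk4 (57.1), Pdk3 (39.7), Pdk1 (36.0), Mpc2 (27.0), Pdp1 (23.2) and Mpc1 (20.6). The intervals of the ratios left Pdk3 and Pdk1, Mpc2 and Pdp1, and Pdp1 and Mpc1 undistinguished as neighbours. In Setd5+/- the order was Pdha1 (543), Pdk2 (120), Dlat (111), Pdhb (72.6), Pdk4 (70.6), Pdk3 (54.9), Pdp1 (39.1), Mpc2 (29.0), Mpc1 (17.0) and Pdk1 (13.0). There Pdk2 and Dlat, Pdhb and Pdk4, and Mpc1 and Pdk1 did not differ beyond counting error. Pdk1 went from the seventh to the last place, and Pdp1 from the ninth to the seventh. The levels of Mpc1 and Pdhb exclude the reads listed on their copies. The intervals of this order and of the kinase shares cover counting error only. How many reads across exon junctions were lost in each gene was not tested.

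Other genes of the complex moved in both directions. Of the 12 found in the table, 11 were tested, 4 of them lower and 2 higher, and their median log2 fold change was -0.18. Over all genes tested, 30.9% were lower and 30.3% higher. Pdhx, which binds E3 to the E2 core, had 391, 301 and 340 normalized counts in WT and 315, 298 and 263 in Setd5+/-, with overlapping groups and a log2 fold change of -0.23 (-0.42 to -0.05, adjusted p = 0.0429). This call was lost without WT sample 1 (-0.14), WT sample 3 (-0.24), Setd5+/- sample 2 (-0.25) or Setd5+/- sample 3 (-0.16), with no filter on low values and with scaling outside chromosome 1 (-0.20). Dld, the E3 subunit that several dehydrogenase complexes share, had 1457 to 1510 normalized counts in WT and 1395 to 1552 in Setd5+/-. Its log2 fold change of -0.03 had a narrow interval (-0.12 to 0.05, adjusted p = 0.542), so the fall of E1 and E2 had no counterpart of that size in E3. Lipt2, an enzyme of the first step in making the lipoyl group that E2 carries, had the largest fall of the list, with 34.7 to 46.4 normalized counts in WT and 16.7 to 19.1 in Setd5+/- (log2 fold change -1.11, -1.79 to -0.43, adjusted p = 0.00144). Lipt1, which transfers lipoyl groups to E2 subunits, was higher, with 33.1 to 41.5 and 46.4 to 71.5 normalized counts (0.59, 0.11 to 1.06, adjusted p = 0.0324). It was named after its values were seen and lies on chromosome 1. Pdpr, the regulatory subunit that lowers the activity of the phosphatase, had the largest rise, with 306 to 361 and 523 to 603 normalized counts (0.73, 0.58 to 0.89, adjusted p = 8.36e-09). The phosphatase catalytic subunit Pdp1 and its inhibitory partner Pdpr thus had similar rises. Pdp2, the second phosphatase, had 149 to 163 normalized counts in WT and 148 to 183 in Setd5+/- and a log2 fold change of 0.07 (-0.19 to 0.32, adjusted p = 0.67).

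The genes of other routes that make or use pyruvate changed in both directions. Of 15, 13 were tested, 5 lower and 4 higher, against 30.9% and 30.3% of all genes tested, with a median of 0.11. Ldhb, a subunit of lactate dehydrogenase, had the largest fall, with 209 to 230 normalized counts in WT and 59.5 to 97.7 in Setd5+/- (log2 fold change -1.52, -1.84 to -1.21, adjusted p = 2.25e-09). Its partner subunit Ldha, named after its values were seen, had 1140 to 1194 and 439 to 486 normalized counts, a log2 fold change of -1.35 (-1.48 to -1.22, adjusted p = 2.6e-17), close in size to that of Pdk1. Slc16a7, a plasma membrane carrier of pyruvate and lactate also known as MCT2, had the largest rise, with 11.6 to 16.6 normalized counts in WT and 72.7 to 77.5 in Setd5+/- (2.37, 1.75 to 3.00, adjusted p = 8.92e-09). Pck2, the mitochondrial enzyme that makes phosphoenolpyruvate, was also named after its values were seen. It had 262 to 299 and 1377 to 1431 normalized counts (2.33, 2.19 to 2.47, adjusted p = 6.11e-22), inside the interval of Slc16a7, so the order of these rises is not settled, and with a pseudocount of 5 Slc16a7 was at 2.10, below Pck2. The lactate dehydrogenase subunits thus stood with Pdk1 among the falls of over 2-fold. Falls of at least 2-fold were seen in 1037 of the 16266 genes tested, and a link between these genes was not tested.

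The sister complexes act on other 2-oxoacids by the same chemistry. Of their 8 genes, 5 were lower and 1 higher, against 30.9% and 30.3% of all genes tested, with a median of -0.17. Bckdhb, the E1 beta subunit of the branched-chain complex, had the largest fall, with 313 to 330 normalized counts in WT and 170 to 179 in Setd5+/- (log2 fold change -0.89, -1.11 to -0.67, adjusted p = 9.53e-09). Dhtkd1, the E1 subunit of the 2-oxoadipate complex, was the 1 that rose, with 168 to 192 and 244 to 293 normalized counts (0.58, 0.37 to 0.80, adjusted p = 3.33e-05).

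Of 10 regulators that are known to control the kinase genes, 9 were tested, with a median of -0.36. In this list 4 were lower and 2 higher, against 30.9% and 30.3% of all genes tested. Hif1a, which encodes the oxygen-regulated subunit of HIF-1, had 2300 to 2444 normalized counts in WT and 2320 to 2427 in Setd5+/-, overlapping throughout, with a log2 fold change near 0 (-0.06 to 0.07, adjusted p = 0.907) whose sign turned with the scaling. The HIF-1 protein is controlled mainly after translation, so the mRNA level does not measure its activity. Ppargc1a, the co-activator PGC-1 alpha of mitochondrial genes, had 742 to 775 and 450 to 473 normalized counts (-0.72, -0.86 to -0.58, adjusted p = 8.21e-11). Myc, a transcription factor that drives glycolytic genes, had the largest fall of the list, with 879 to 963 normalized counts in WT and 214 to 242 in Setd5+/- (-2.03, -2.21 to -1.85, adjusted p = 5.78e-19). Foxo1, which induces Pdk4 in fasting, had the largest rise, with 97.0 to 122 and 125 to 182 normalized counts (0.50, 0.22 to 0.78, adjusted p = 0.00542). Without Setd5+/- sample 3 it was 0.37 (adjusted p = 0.0545).

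**Figure D4:**
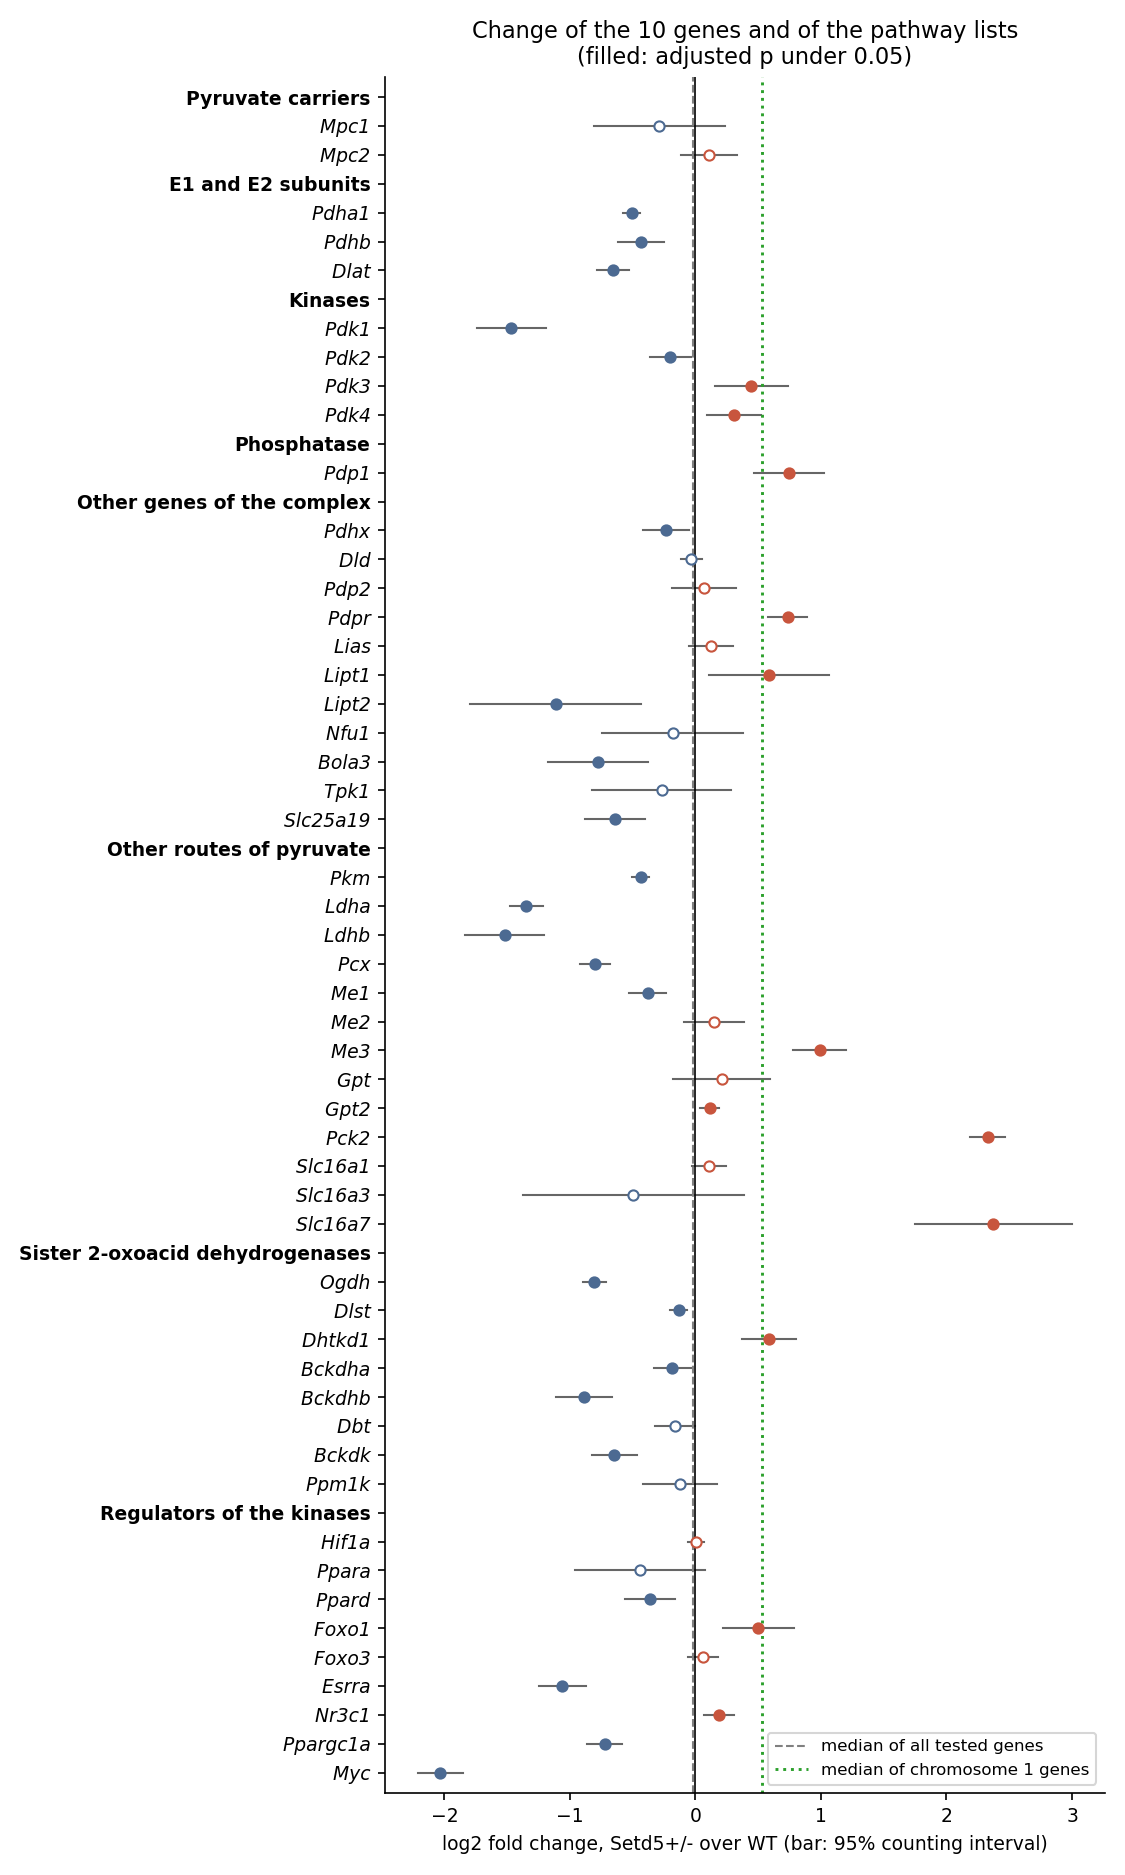
Log2 fold change of Setd5+/- over WT (horizontal axis) of the 10 genes and of the tested genes of the 4 pathway lists, with 95% counting intervals, where filled points passed an adjusted p under 0.05. The dashed line is the median of all tested genes (-0.02) and the dotted line that of chromosome 1 (0.53), and Pdk1 lies furthest to the left of the 10.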

How the data were processed

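The authors trimmed paired reads of NSC RNA (TruSeq RNA v2 libraries) with Trimmomatic, aligned them to mm10 with Bowtie2 and divided the counts per gene by DESeq2 size factors. The counting program, its strand setting and the tool versions are not given in the sources used here. The deposited values are these normalized counts, another unit than raw counts, and many had lost their decimal points. Each point was put back so that the value was a whole number of reads in that sample and the 6 values gave the deposited mean, which settled 1116 of the 52438 genes with values. The authors' own comparison columns (fold change, its error, p-values) were not used, and no per-sample column was left out.

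The values were put on the scale log2(normalized count + 1) and tested with limma 3.58.1 in R 4.3.3, with a mean-variance trend in eBayes, for genes whose mean was 10 or more, so fold changes of low genes are understated, with Benjamini-Hochberg adjustment over all genes tested. A count model was not used since the values are not counts as deposited. Counting intervals used a variance of 1.94 times the mean, as measured within the genotypes. In data simulated for this comparison, over 16297 genes tested, 68 of 100 genes changed by 0.5 and 82 of 98 changed by 1 on the log2 scale were recovered, with 4 false calls. The simulated samples held counting noise only, with no difference between libraries or clones. Few genes were changed in them, while 61.3% of the genes tested passed in the real data. Neither the recovery nor the number of false calls therefore carries over to the real data. Positions, exon lengths and transcripts are from GENCODE M21 (GRCm38, the mm10 build), and copies are blastn 2.17.0 matches of at least 90% identity over 200 bases. Replicate numbers did not pair the samples.

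The genes and lists were chosen with earlier results of these data known. Named were the 10 genes, Setd5, the largest fall and rise in each pathway list, and Pdhx, Dld, Pdp2, Pdpr, Hif1a and Ppargc1a. Alternatives were other pseudocounts, filters and scalings, a replicate block, leaving out each sample, other exon lengths and adding copies.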

Additional observations from a re-analysis of the deposited data

How the results depend on the processing

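Of 440 values under alternatives, 404 were rated as kept. A fold change had to keep its direction and its side of the threshold, and a share had to stay within the counting interval. A count of genes called had only to stay within a set ratio of the main count. The 6 to 8 of the 10 genes called when 1 sample was left out were thus rated as kept. The log2 fold changes of Pdha1, Pdhb, Dlat, Pdk1 and Pdp1 kept their direction and their side of the threshold under every alternative tried. Asking for a 2-fold change as well left 2696 of 9963 genes and 1 of the 8 called genes of the 10, Pdk1. With a replicate block, 9946 genes were called, 8 of the 10 genes among them, and no call of a named gene changed; the samples share only a number, since the deviations of same-numbered samples correlated by -0.007 to 0.005. Scaling outside chromosome 1 gave Pdk2 a log2 fold change of -0.17 and lost its call (limma adjusted p = 0.0549). With no filter on low values Pdk3 stayed at 0.45 but lost its call (adjusted p = 0.0517). Adding the copies took Mpc1 to -0.55, and it was then called (adjusted p = 2.49e-07). Hif1a turned to -0.033 with upper quartile scaling and -0.034 with total reads. Leaving out 1 sample at a time gave ranges of -0.37 to -0.12 for Mpc1, -0.0020 to 0.21 for Mpc2, -0.22 to -0.16 for Pdk2, 0.28 to 0.56 for Pdk3, 0.23 to 0.34 for Pdk4, -0.077 to 0.00023 for Dld, -0.016 to 0.14 for Pdp2 and -0.017 to 0.027 for Hif1a. The kinase shares depend on the length used. With the longest transcript Pdk1 made up 15.3% in WT and 5.97% in Setd5+/-, Pdk2 54.9% and 51.8%, and Pdk4 16.3% and 21.8%. With no division by length Pdk1 made up 27.5% and 11.6%, Pdk2 42.8% and 43.7%, and Pdk3 9.98% and 16.2%. Pdk1 was lower and Pdk3 and Pdk4 higher in Setd5+/- with each, while the fall of Pdk2 turned to a slight rise with no division by length. Except where named, the cause of a changed call was not tested. Among the 10 genes, depth limits Mpc1 most, with 155 and 89 reads.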
